A study of Mus musculus with 11 samples.

Results

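Expression of 10 circadian clock and clock output genes (Per1, Per2, Per3, Cry1, Cry2, Nr1d1, Nr1d2, Dbp, Arntl and Ciart) was described in the hippocampus of each of 11 mice. The genes were chosen by name, by mapping the Ensembl identifiers of the count tables to GENCODE symbols on GRCm38, and make up 10 of the 38293 genes counted. All 10 passed the filter of at least 10 counts in total over the mice, and each symbol matched 1 identifier.

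The mice were wildtype 129S6/SvEv x C57BL/6J F1 offspring, killed at 14 weeks of age. Mothers of the CD group ate a diet with 2.3 mg folic acid per kg before they were mated, and mothers of the FD group ate one with 40 mg per kg. Dams and offspring of both groups had the diet with 2.3 mg per kg from mating on, so the planned difference lies in what the mother ate before conception. There were 6 CD mice (3 male, 3 female) and 5 FD mice (2 male, 3 female). RNA came from whole hippocampus, in which fewer cells of a type and less RNA per cell cannot be told apart. The offspring were housed under a light and dark cycle and came from several litters, but neither the time of day at which each mouse was killed nor its litter is in the labels, so differences in either cannot be told apart from differences between single mice.

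In mammalian cells the clock is a loop of transcription and repression. ARNTL (also called BMAL1) and its partner CLOCK bind E-box sequences and switch on the Per and Cry genes, whose proteins accumulate and block ARNTL and CLOCK. A second loop runs through Nr1d1 and Nr1d2, whose proteins (REV-ERB alpha and beta) repress Arntl, so that in most tissues Arntl transcripts are high when those of Nr1d1 are low. Dbp and Ciart are direct targets of the same E-box activation, and DBP protein in turn binds D-box sequences in genes such as the Per genes.

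Sequences that these regulators are known to bind, and the cAMP response element, were looked up in the RefSeq promoters of the members. Each window ran from 250 bases before to 50 bases after a transcript start (GRCm38.p6). For the members 9 genes and 11 windows were found. Per2 had no window and was not searched. The motifs searched, on both strands, were the E-box CACGTG, the D-box as TTATGTAA or TTACGTAA, the ROR element TAGGTCA and the cAMP response element TGACGTCA. An E-box stood in the first of the 2 Per1 windows and in the windows of Cry1 and Ciart. These were 3 of the 11 windows of members, against 7.15% of all 32851 promoter windows. The window of Dbp held no E-box in this spelling. The D-box stood 2 times in the window of Per3, against 1.056% of all windows, and the ROR element in the second of the Arntl windows, against 2.606%. None of the 11 windows held a cAMP response element in this spelling, which 1.79% of all windows did. The stretches with these motifs are given so that the letters behind these counts can be seen, with the motif in capitals and the sense strand of the gene written 5′ to 3′. Their positions are chr11:69098763-69098808 (plus strand) for Per1, chr10:85185089-85185134 (minus) for Cry1, chr3:95882247-95882364 (minus) for Ciart, chr4:151044796-151044890 (minus) for Per3 and chr7:113207531-113207557 (plus) for Arntl.
Per1 E-box: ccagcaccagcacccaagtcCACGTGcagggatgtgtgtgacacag
Cry1 E-box: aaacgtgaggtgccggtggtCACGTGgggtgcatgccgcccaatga
Ciart E-boxes: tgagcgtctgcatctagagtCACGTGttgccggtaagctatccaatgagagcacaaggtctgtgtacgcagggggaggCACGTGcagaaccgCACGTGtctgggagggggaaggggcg
Per3 D-boxes: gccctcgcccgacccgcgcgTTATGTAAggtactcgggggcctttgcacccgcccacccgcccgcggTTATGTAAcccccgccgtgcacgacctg
Arntl ROR element: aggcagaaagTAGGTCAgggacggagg
In Ciart the E-box occurred 3 times, more often than in any other window of a member, and in Arntl the ROR element began 30 bases after the transcript start. A match describes only the letters in these windows.

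Total counts on genes ranged from 11737554 to 44447006 per mouse, so that 3 counts correspond to between 0.0675 and 0.2556 counts per 1000000 (CPM). All 9 hippocampal neuron markers were present, with a summed level of 6974 to 8032 CPM, most of it from Camk2a, the synaptic kinase of forebrain excitatory neurons (5064 ± 144.1 CPM in CD and 4974 ± 313.7 CPM in FD mice, SD, n = 6 and 5). The choroid plexus marker list summed to between 32.59 and 95.2 CPM. Its most abundant gene was Kl, which hippocampal neurons also express and which was even across mice (21.78 to 25.03 CPM), whereas Ttr, the transthyretin gene that defines choroid plexus epithelium, ranged from 3.35 CPM to 54.73 CPM in CD female 3. Otx2 and Prlr, the choroid plexus transcripts that the methods name for a qPCR check of the dissection, were at 0.0853 to 1.06 CPM and 3.48 to 4.80 CPM. Markers of thalamus, striatum and cortex summed to between 119.4 and 164.5 CPM. Of 9 suprachiasmatic and hypothalamic markers 5 passed the count filter, and they summed to between 16.19 and 22.77 CPM, most of it Vip, which hippocampal interneurons also make.

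All 10 clock genes were readily measured. Per kilobase of exon the levels followed the order Nr1d1 (29.1 CPM per kb on average), Cry2 (22.4), Nr1d2 (15.1), Per1 (13.6), Dbp (8.84), Per2 (6.22), Arntl (5.08), Per3 (4.45), Cry1 (3.50) and Ciart (3.10). The ranges over mice of Nr1d1 and Cry2, of Cry2 and Nr1d2, and of Per1 and Dbp did not overlap, and all other neighbours in this order overlapped. The REV-ERB gene Nr1d1 stood at the top and the E-box target Ciart at the bottom.

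The first question was whether the diet of the mother before conception changed the level of the clock genes. None of the 10 members passed an adjusted p of 0.1 in edgeR's quasi-likelihood test of FD against CD mice, and none did in DESeq2. Over all genes, 14 of 20589 (0.068%) passed in edgeR and 18 in DESeq2, a share near which a count of 0 among 10 genes lies. With the mice blocked by sex and replicate number edgeR called 25 genes, again with 0 members. One member had an unadjusted p under 0.05 in edgeR, against 2.59% of all genes, and 0 had one in DESeq2. The FD and CD mice overlapped in all 10 members, where 0.505% of all genes had groups that did not overlap. The median log2 fold change over the 10 members was 0.02, beside -0.004 over all genes, and 6 members lay above 0 and 4 below.

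Arntl (ENSMUSG00000055116, chr7:113207465-113314126, plus strand), the activator of the loop, was the member with the smallest p for diet. It stood between 36.68 and 45.81 CPM in CD mice, with a median of 39.27 CPM. In the FD mice Arntl was at 41.91, 33.7, 31.45, 34.86 and 36.56 CPM. All FD mice other than female 1 were below the lowest CD mouse, and FD female 1 was above the CD median, so the groups overlapped. Arntl transcripts were 0.17 lower in FD mice on the log2 scale (log2 fold change -0.17, SE 0.08, 95% interval -0.33 to -0.0025, unadjusted p = 0.0471, adjusted p = 1). The value was -0.25 in males alone and -0.08 in females alone (edgeR adjusted p = 1 and 0.9998). The interval allows a level in FD mice between 0.793 and 0.998 times that in CD mice.

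The Per genes encode the repressors whose transcripts follow E-box activation. Per1 (ENSMUSG00000020893, chr11:69095217-69109960, plus strand), which is also induced by synaptic activity, ranged from 68.44 to 87.38 CPM in CD mice around a median of 81.04 CPM. FD mice had 78.88, 68.64, 68.3, 79.33 and 71.17 CPM of Per1. FD female 2 was just below the lowest CD mouse and the others lay inside the CD range (log2 fold change -0.11, SE 0.07, adjusted p = 1). Per2 (ENSMUSG00000055866, chr1:91415982-91459324, minus strand) ranged from 31.76 to 39.38 CPM in CD mice, with a median of 35.13 CPM. Its FD values were 35.37, 39.22, 37.84, 45.04 and 31.38 CPM. The highest and the lowest Per2 level of all mice were both in the FD group (log2 fold change 0.09, SE 0.08, adjusted p = 1). Per3 (ENSMUSG00000028957, chr4:151003652-151044665, minus strand), whose promoter holds the pair of D-boxes, ranged from 36.12 to 44.71 CPM in CD mice around a median of 42.19 CPM. In FD mice the levels of Per3 were 40.75, 44.51, 51.17, 46.73 and 38.13 CPM. FD female 2 and male 2 were above every CD mouse and the other three FD mice lay within the CD range (log2 fold change 0.09, SE 0.07, adjusted p = 1).

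CRY1 and CRY2 are the strong repressors of ARNTL and CLOCK. Cry1 (ENSMUSG00000020038, chr10:85131700-85185064, minus strand) stood between 9.187 and 12.92 CPM in CD mice, with a median of 12.19 CPM. The FD mice had 12.85, 11.14, 11.95, 12.02 and 11.18 CPM. All of the FD values fell inside the CD range (log2 fold change 0.02, SE 0.09, adjusted p = 1). Cry2 (ENSMUSG00000068742, chr2:92403646-92434043, minus strand) ranged from 139.7 to 147.7 CPM in CD mice around a median of 145.4 CPM. FD mice had 136.3, 139.8, 134.4, 137.9 and 142.3 CPM. FD female 1, female 2 and male 2 were below every CD mouse, and FD male 1 and female 3 lay within the CD range. Cry2 was the most tightly bounded member for diet, with a log2 fold change of -0.07 (SE 0.04, adjusted p = 1) and an interval of 0.901 to 1.01 times the CD level.

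The second loop is carried by Nr1d1 and Nr1d2. Nr1d1 (ENSMUSG00000020889, chr11:98767932-98775333, minus strand) ranged from 78.85 to 102.6 CPM in CD mice, with a median of 88.26 CPM. Its FD levels were 80.53, 81.92, 96.32, 88.52 and 97.13 CPM. All FD values lay inside the CD range (log2 fold change -0.02, SE 0.08, adjusted p = 1). Nr1d2 (ENSMUSG00000021775, chr14:18204054-18239127, minus strand) was at 71 to 87.67 CPM in CD mice around a median of 81.05 CPM. FD mice had 70.59, 80.3, 90.15, 107.2 and 75.93 CPM of Nr1d2. FD male 2 and female 2 exceeded every CD mouse and FD female 1 was the lowest of all (log2 fold change 0.09, SE 0.09, adjusted p = 1).

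Dbp and Ciart read out the activating arm, Dbp as a D-box activator and Ciart (also called CHRONO) as a repressor of ARNTL and CLOCK. Dbp (ENSMUSG00000059824, chr7:45705088-45710203, plus strand) ranged from 20.05 to 35.35 CPM in CD mice, with a median of 24.25 CPM. In FD mice Dbp was at 22.49, 22.09, 29.77, 31.53 and 28.03 CPM. FD female 1 and male 1 were near the low end of the CD range and the other three in its upper part, with none outside it (log2 fold change 0.02, SE 0.14, adjusted p = 1). Ciart (ENSMUSG00000038550, chr3:95878503-95882251, minus strand) was at 4.523 to 7.884 CPM in CD mice around a median of 6.871 CPM. The FD values of Ciart were 5.813, 5.331, 9.442, 9.969 and 6.997 CPM. FD female 2 and male 2 were above every CD mouse (log2 fold change 0.13, SE 0.16, adjusted p = 1). Ciart was the least bounded member, and its 95% interval runs from 0.862 to 1.39 times the CD level.

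**Figure D1:**
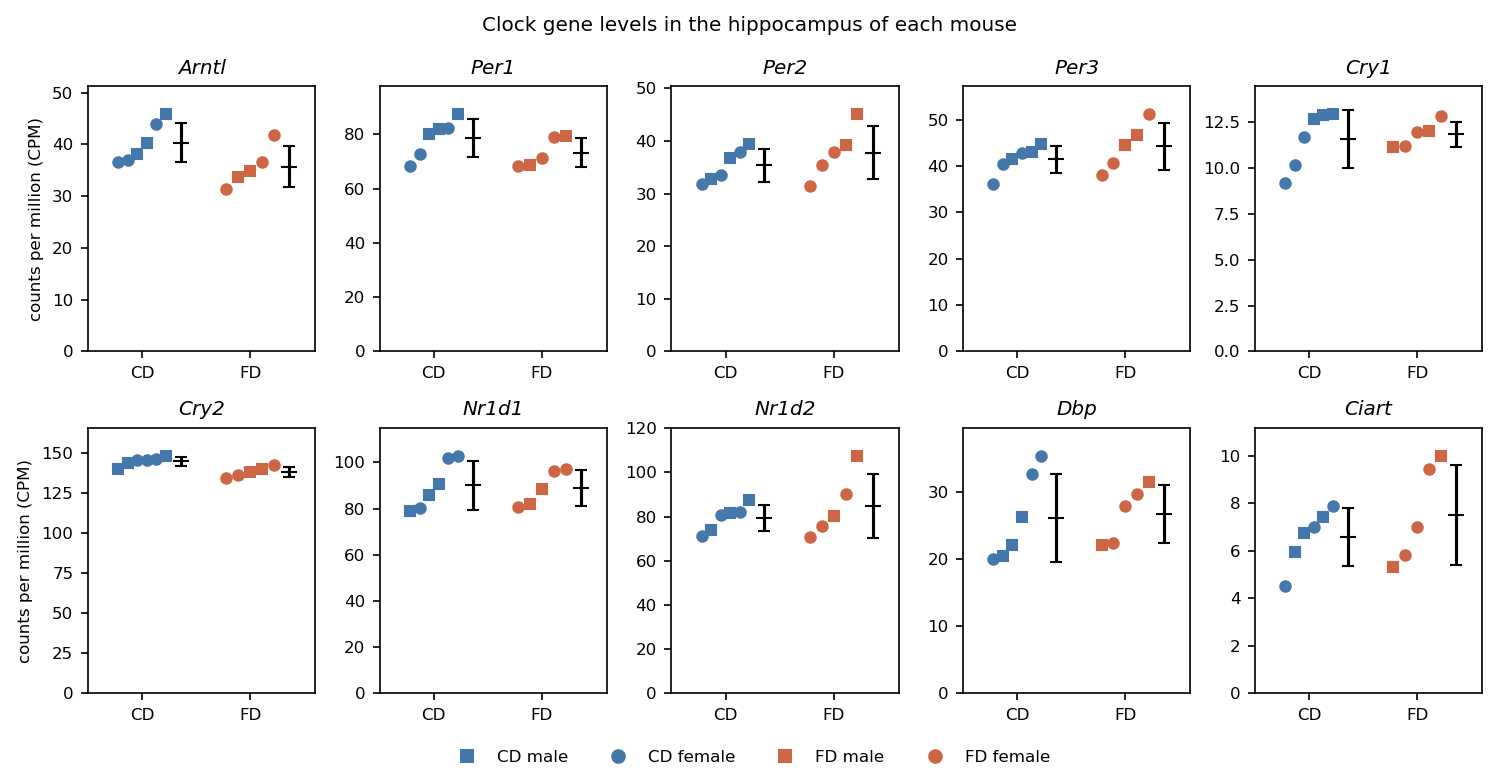
Level of each clock gene in every mouse, in TMM-normalized CPM on axes that start at 0, for 6 CD and 5 FD mice. Points are mice, sorted by level within a group, squares are males and circles females, and the bar beside each group is the mean with its SD. The groups overlap in all 10 genes, Cry2 is nearly level across mice (134.4 to 147.7 CPM), and Ciart spans 4.523 to 9.969 CPM.

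The remaining clock genes gave a similar picture for diet. Among 13 other core clock genes and 5 other clock output genes, 0 passed the threshold in edgeR and 0 in DESeq2, and 0 had an unadjusted p under 0.05 in either tool. Their median log2 fold changes of FD against CD were 0.003 and 0.0028, beside 0.02 for the 10 members. The smallest p-value was that of Timeless, a replication fork protein named after the fly clock gene (4.146 ± 0.3063 CPM in CD and 4.675 ± 0.4651 CPM in FD mice, SD, n = 6 and 5, log2 fold change 0.19, adjusted p = 1 in edgeR). Wee1, the mitotic kinase whose gene is under clock control, was at 12.31 ± 1.499 and 13.11 ± 0.6701 CPM (log2 fold change 0.08, adjusted p = 1).

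Signals that can reset Per1 or Per2 in the brain were looked at beside the members. Of the 10 immediate early genes, 0 passed the threshold for diet in either tool or had an unadjusted p under 0.05, while 9 of 10 had fitted values below 0 and their median was -0.20 on the log2 scale. Junb was at 25.53 ± 5.702 CPM in CD and 20.53 ± 5.428 CPM in FD mice (log2 fold change -0.30, adjusted p = 1), and Fosb at 8.365 ± 1.244 and 7.256 ± 1.239 CPM (log2 fold change -0.20, adjusted p = 1). For the 10 glucocorticoid target genes the median was 0.03 and 0 passed, and the 2 with the smallest p were Sult1a1 (log2 fold change 0.24, adjusted p = 1), a sulfotransferase, and Pdk4 (0.08, adjusted p = 1), a brake on pyruvate oxidation. The 7 temperature-sensitive genes had a median of 0.02 with 0 passing, and Cirbp, the cold-inducible RNA-binding protein, was at -0.09 and Hspa1b, an inducible heat shock protein, at 0.12 (adjusted p = 1 for both). Their part in the levels of the members was not tested.

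Among the markers of other tissues, 0 passed for diet. The choroid plexus list had a median log2 fold change of -0.29, with 9 of 10 genes below 0. An unadjusted p under 0.05 was reached by 2 of the 10 in edgeR and by 2 in DESeq2, beside 2.59% of all genes in edgeR. Ttr was 1 of them in edgeR (unadjusted p = 0.0212). Ttr was at 21.93 ± 18.56 CPM in CD and 9.071 ± 4.264 CPM in FD mice (SD, n = 6 and 5, log2 fold change -1.19, SE 0.47, adjusted p = 1), and the CD mean rested on female 3 at 54.73 CPM and male 2 at 31.56 CPM. These same mice held the highest Dbp level and the highest Arntl level respectively. The part of adhering choroid plexus in these levels was not tested.

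**Figure D2:**
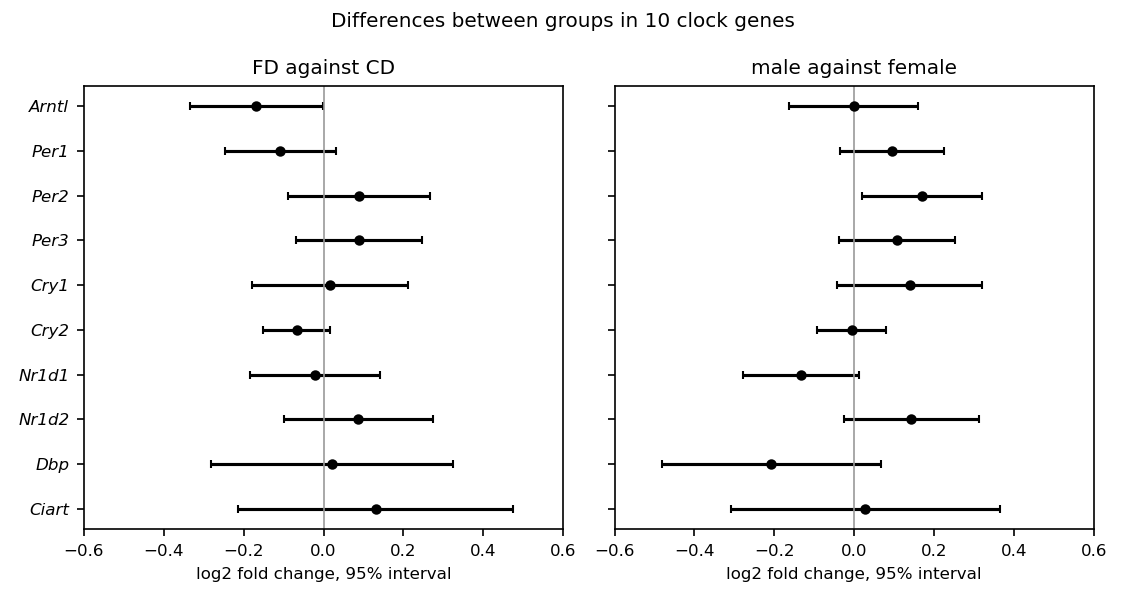
Log2 fold change of each clock gene with its 95% interval from edgeR, FD against CD mice (left, 5 and 6 mice) and male against female mice with diet as covariate (right, 5 and 6 mice). Only the interval of Arntl for diet (upper end -0.0025) and that of Per2 for sex (lower end 0.0205) leave out 0, and no member passed the adjusted threshold.

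Sex was compared in the same way, with diet as a covariate, since both sexes were sampled. None of the 10 members passed the threshold in edgeR or DESeq2, while 1257 of 20589 genes (6.11%) did in edgeR. One member had an unadjusted p under 0.05 in either tool, beside 20.3% of all genes in edgeR, and the sexes overlapped in all 10 members (1.78% of all genes did not). The member with the smallest p was Per2, at 38.61 ± 4.486 CPM in 5 males and 34.65 ± 2.899 CPM in 6 females (log2 fold change 0.17, SE 0.07, unadjusted p = 0.0281, adjusted p = 0.186). Nr1d1 was at 85.16 ± 4.799 CPM in males and 93.14 ± 10.24 CPM in females (log2 fold change -0.13, SE 0.07, adjusted p = 0.294). Dbp was at 24.52 ± 4.49 and 28.06 ± 5.872 CPM (log2 fold change -0.21, SE 0.13, adjusted p = 0.394), and its sexes overlapped over most of their range.

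The calls for sex rested on single mice. Without CD female 2 the genes called rose to 3244, among them Per2 (log2 fold change 0.21, adjusted p = 0.0586) and Nr1d1 (-0.18, adjusted p = 0.0744), and without CD male 1 they fell to 18. Per3 passed only without FD female 2 (log2 fold change 0.17, adjusted p = 0.0835), where 2762 genes were called. With no count filter, Per2 (log2 fold change 0.17, adjusted p = 0.0945) and Dbp (-0.21, adjusted p = 0.0484) were called, among 2645 genes. Members were called only in fits that called more genes than the 1257 of the main fit. These calls are therefore not read as particular to the clock genes.

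Of the 13 other core clock genes 1 passed for sex in edgeR, and of the 5 other clock output genes 1, beside 6.11% of all genes. Usp2, a clock-controlled deubiquitinase, fell in males (56.4 ± 4.231 CPM, n = 5) against females (68.21 ± 6.12 CPM, n = 6, log2 fold change -0.28, SE 0.06, adjusted p = 0.0621 in edgeR). Clock, the partner of Arntl, rose in males (111.9 ± 2.879 against 97.04 ± 12.54 CPM, log2 fold change 0.22, SE 0.07, adjusted p = 0.0981). Leaving out 1 mouse ended the call of Usp2 for 6 of the 11 mice and that of Clock for 9. Beside these, 6 of the 10 immediate early genes were lower in males and passed, with Npas4 at 6.16 ± 0.4239 CPM in males and 10.3 ± 2.687 CPM in females (log2 fold change -0.74, adjusted p = 0.0489). The 10 glucocorticoid target genes all lay above 0, with 3 passing and a median of 0.14, and of the temperature-sensitive genes Rbm3 passed (log2 fold change 0.34, adjusted p = 0.0805). Of the tissue markers, Zbtb20, a transcription factor of hippocampal neurons, was higher in males and passed (397.4 ± 43.28 against 306.3 ± 72 CPM, log2 fold change 0.40, adjusted p = 0.0754). Slc17a7, the vesicular glutamate transporter (-0.13, adjusted p = 0.165), and Fibcd1, a marker of CA1 neurons (-0.18, adjusted p = 0.163), did not pass. Of the 9 hippocampal neuron markers, 2 lay above 0 and 7 below. The choroid plexus list had a median of -0.32 with 0 passing. Of its 10 genes 4 lay above 0 and 6 below, among them Folr1, a folate receptor, at -0.80 (adjusted p = 0.124). The part of these lists in the values of the clock genes was not tested.

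A different effect of diet in males and females was tested by the interaction of both terms. No gene passed the threshold in edgeR (0 of 20589, 0%) or in DESeq2, and 391 genes (1.9%) had an unadjusted p under 0.05 in edgeR and 119 in DESeq2. Of the 10 members, 1 was among those of edgeR, Cry1, and 0 among those of DESeq2. Cry1 stood at 12.89, 12.92 and 12.69 CPM in the CD males and at 11.14 and 12.02 CPM in the FD males. In the females it was at 11.68, 10.16 and 9.187 CPM in CD and at 12.85, 11.95 and 11.18 CPM in FD mice. Both FD males were thus below all CD males, and the females of the diets overlapped (interaction -0.35 on the log2 scale, SE 0.16, unadjusted p = 0.0426, adjusted p = 1).

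The clock genes differed in how much they varied among mice of 1 group. Dbp and Ciart varied most, with within-group SDs of 0.304 and 0.341 on the log2 CPM scale and a highest mouse at 1.76 and 2.20 times the lowest. Against the 1000 genes nearest in abundance, the SD of Dbp lay at percentile 97.9, that of Ciart at 93.9 and that of Nr1d2 at 90.7. Nr1d1 and Per2 lay at 83.7 and 82.5, and Arntl, Per3, Per1 and Cry1 between 60.2 and 76. At the other end, Cry2 had an SD of 0.0298, at percentile 0.2, and its highest mouse was only 1.10 times its lowest. In 9 of the 10 members the spread was above the median of genes of like abundance, and Cry2 was the exception. The biological coefficient of variation that edgeR assigned was 16.6% for Dbp, where the trend at its abundance was 9.59%, and 17.6% for Ciart against a trend of 12%. It was below the trend for Per1 (8.10% against 8.48%), Per3 (8.95% against 9.03%), Cry1 (9.65% against 10.96%) and Cry2 (5.65% against 8.47%). Per2, Nr1d1, Nr1d2 and Arntl (9.25% against 9.16%) were above it. By this measure the larger spread was thus not general to the members.

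**Figure D3:**
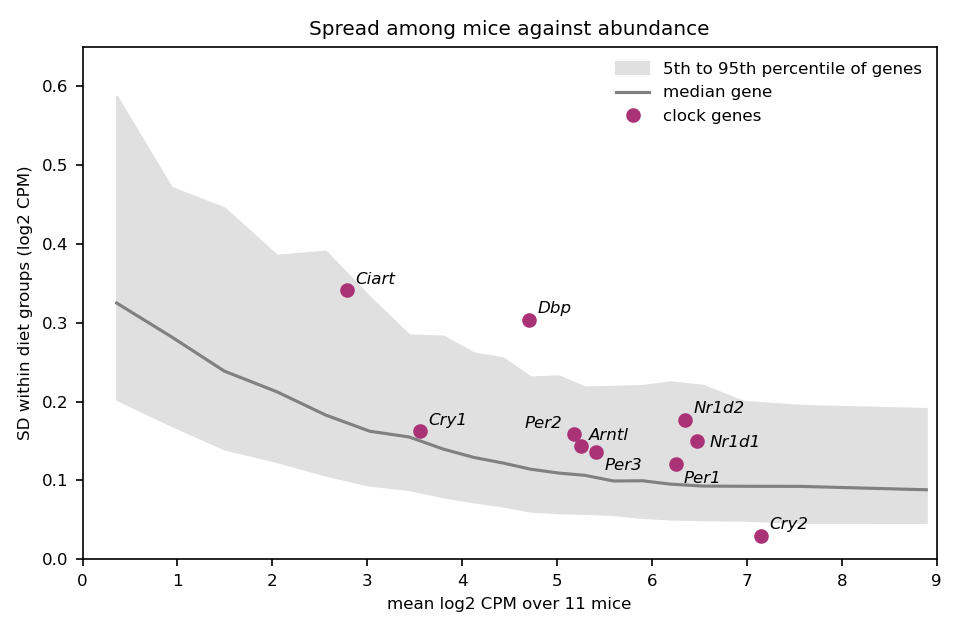
Standard deviation among mice within diet groups (log2 CPM) against mean abundance (log2 CPM over 11 mice) for the 10 clock genes, with the median and the 5th to 95th percentile of genes of at least 1 CPM in bins of abundance. Dbp (0.304) lies above the band and Cry2 (0.0298) below it.

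Some of this spread was shared between pairs of members. Over the 11 mice, 3 of the 45 pairs of members passed an adjusted p of 0.1 by a two-sided permutation test of Pearson's r on log2 CPM, and 3 did so by Spearman's rho. The other 42 pairs did not pass by r. The smallest r of the 3 was 0.772, a size that 4.63% of all 104206266 pairs of genes of at least 1 CPM reached and 6.67% of the member pairs, so the count lies near the background. The closest pair was Nr1d1 and Dbp (r = 0.914, permutation p = 0.00032, adjusted p = 0.0144, rho = 0.9, permutation p = 0.00031, adjusted p = 0.014). Without the 2 mice farthest from the median of Nr1d1, r was 0.846, and in the 6 CD mice alone it was 0.986. CD females 1 and 3 were the 2 highest mice for both genes, and CD male 2 and CD female 2 the 2 lowest for both.

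Ciart followed with 2 pairs. Nr1d2 and Ciart had r = 0.835 (permutation p = 0.00115, adjusted p = 0.0259, rho = 0.809, permutation p = 0.00383, adjusted p = 0.0862), 0.798 without the 2 farthest mice for Nr1d2 and 0.866 in the CD mice. Dbp and Ciart had r = 0.772 (permutation p = 0.00545, adjusted p = 0.0818, rho = 0.782, permutation p = 0.00636, adjusted p = 0.0954), 0.852 without the 2 farthest for Dbp and 0.73 in the CD mice. FD male 2 and FD female 2 were the highest mice for Nr1d2 and for Ciart, and ranked 3 and 4 for Dbp. The call of Dbp and Ciart was lost without any of 8 single mice, with r between 0.712 and 0.878 over the 11 omissions, and that of Nr1d2 and Ciart without FD male 2 (r = 0.782, permutation adjusted p = 0.127).

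Arntl had negative values with these genes. Its r was -0.645 with Dbp, -0.642 with Ciart, -0.587 with Nr1d1 and -0.654 with Nr1d2, none past the threshold (permutation adjusted p from 0.184 to 0.219, rho from -0.545 to -0.636, adjusted p = 0.278 for each). In the 6 CD mice these values were -0.912, -0.796, -0.95 and -0.802. No r is given over the 5 FD mice alone, so the values of the CD mice are not shown to hold in the FD mice. Among the FD mice Arntl was highest in female 1 (41.91 CPM), where Dbp was at 22.49 CPM, and lowest in female 2 (31.45 CPM), where Dbp was at 29.77 CPM, while male 1 was low in both (33.7 and 22.09 CPM). CD male 2 and CD female 2 had the highest Arntl levels, 45.81 and 44.04 CPM, and the 2 lowest Dbp levels, 20.49 and 20.05 CPM. With 1 mouse left out at a time, r of Arntl and Dbp ran from -0.817 to -0.56 and that of Arntl and Nr1d1 from -0.764 to -0.476, both weakest without CD male 2. That of Arntl and Ciart ran from -0.87 to -0.526, weakest without FD female 2, and that of Arntl and Nr1d2 from -0.737 to -0.589. Of the 11 omissions, only that of FD male 1 brought pairs of Arntl past the threshold, which was noted after the values were seen (permutation adjusted p = 0.0486 with Dbp, 0.0819 with Nr1d1 and 0.0201 with Ciart).

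**Figure D4:**
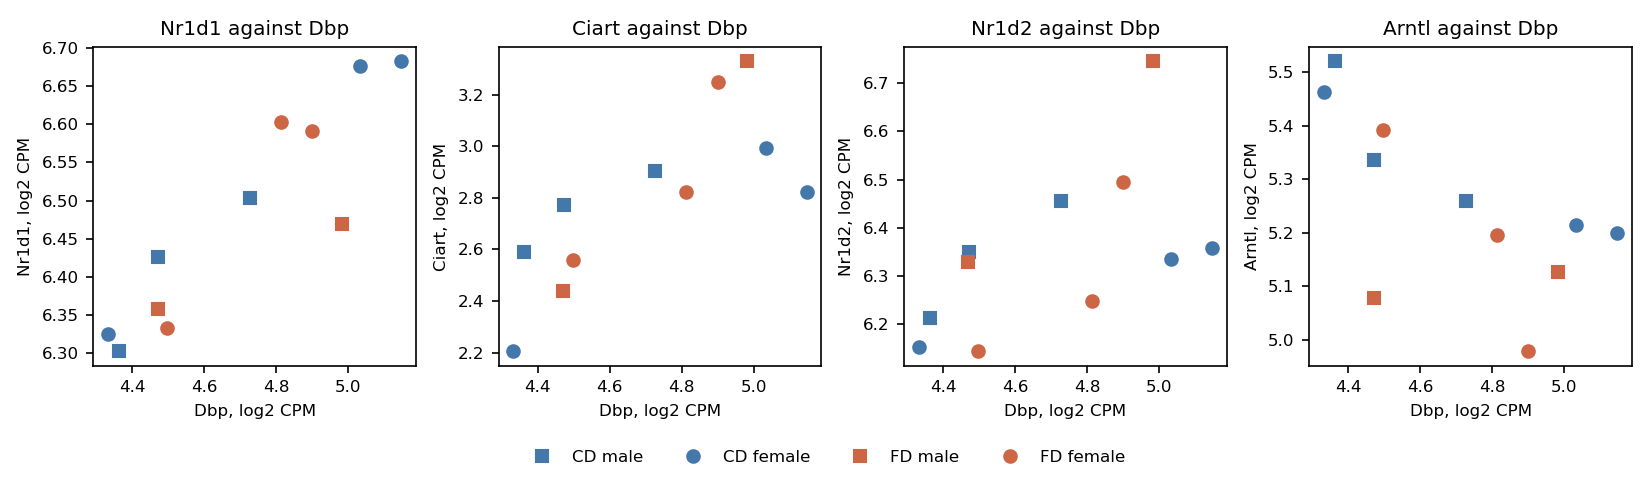
Nr1d1, Ciart, Nr1d2 and Arntl against Dbp, each in log2 CPM, with 1 point per mouse (squares males, circles females, 6 CD and 5 FD mice). The axes are cut to the range of the values. Nr1d1 rises with Dbp (r = 0.914) and Arntl falls (r = -0.645), with FD male 1 low in both Dbp and Arntl.

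Once the group means of diet and sex were taken out, most of these relations had a larger r. Taking out fitted means leaves fewer free values, so r of any pair of genes can become larger in size. On these residuals 11 of the 45 pairs passed, of which 9 were among the 10 pairs that Dbp, Nr1d1, Nr1d2, Ciart and Arntl form, a set of 5 genes named after these values were seen. All 11 had r of at least 0.683 in size, which was 24.4% of the member pairs, beside 9.42% of all pairs of genes on residuals. This cut is lower than the 0.772 used before, so the 2 shares of all pairs (4.63% and 9.42%) cannot show whether gene pairs in general became closer. Pairs of genes share the mice and are not independent. The r of Arntl was then -0.836 with Nr1d1 (permutation adjusted p = 0.021), -0.753 with Dbp (adjusted p = 0.0516), -0.724 with Nr1d2 (adjusted p = 0.0639) and -0.626 with Ciart (adjusted p = 0.154). Nr1d2 joined Dbp at r = 0.854 (permutation adjusted p = 0.0157) and Nr1d1 at 0.73 (adjusted p = 0.0628). As measured, before the means were removed, Nr1d2 had r = 0.592 with Dbp and 0.359 with Nr1d1, neither past the threshold (permutation adjusted p = 0.199 and 0.578). The permutation treats the residuals as free although the means were fitted, which makes these p-values somewhat small. The other 2 pairs were Per1 with Cry1 (r = 0.694) and Per3 with Cry2 (r = -0.683).

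No Per or Cry gene passed the threshold with Dbp. Their r with Dbp over the 11 mice was -0.016 for Per1, -0.144 for Per2, 0.001 for Per3, -0.338 for Cry1 and 0.067 for Cry2, with permutation adjusted p of at least 0.617. Per2 had r = 0.613 with Nr1d2 (rho = 0.345, permutation adjusted p = 0.191 and 0.615) and 0.578 with Per3 (rho = 0.6, permutation adjusted p = 0.219 and 0.278). Per3 had r = -0.653 with Cry2 (rho = -0.609, permutation adjusted p = 0.184 and 0.278), and Per1 had r = 0.629 with Cry1 (rho = 0.573, permutation adjusted p = 0.184 and 0.278). None of these pairs passed the threshold. FD male 2 was the highest mouse for Per2, Nr1d2 and Ciart, and FD female 2 the highest for Per3 and the lowest for Per1, Cry2 and Arntl. CD male 3 ranked 1 for Per1, 2 for Per2 and 3 for Per3 among the 11 mice.

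**Figure D5:**
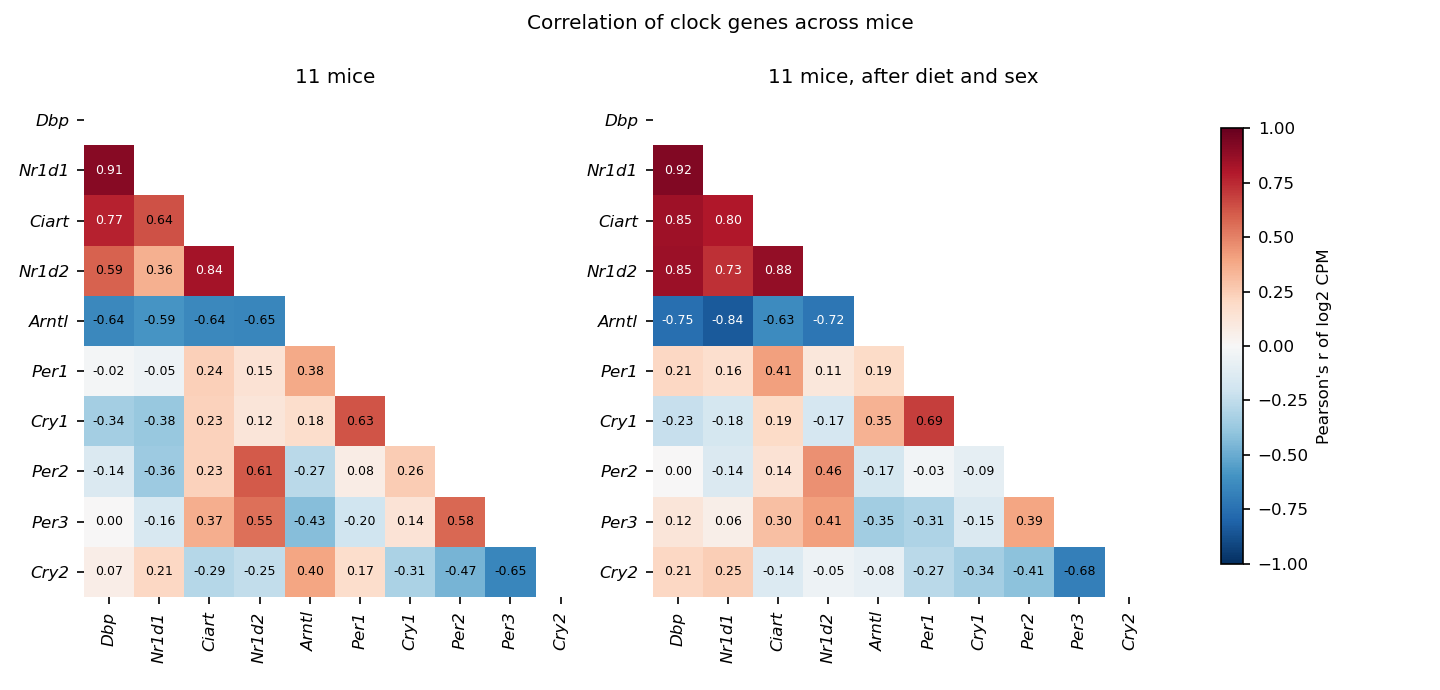
Pearson's r of log2 CPM for the 45 pairs of clock genes over 11 mice, as measured (left) and after the means of diet and sex were removed (right). In both panels r is above 0 among Dbp, Nr1d1, Ciart and Nr1d2 and below 0 between each of them and Arntl. In the left panel only 3 of the 45 pairs passed the threshold, none of them with Arntl, and Nr1d1 with Nr1d2 had r = 0.359. The r of the Per and Cry genes with Dbp runs from -0.338 to 0.067 in the left panel.

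Across 14436 genes of at least 1 CPM, Nr1d1 ranked 6 by its r with Dbp, Ciart 201 and Nr1d2 1074 (7.43% of genes had a higher r), and Arntl ranked 752 from the lowest (5.2% had a lower r). The 5 other genes with the highest r with Dbp were Stard3nl (0.964), Ier3ip1 (0.937), Blvra (0.932), Chchd3 (0.92) and Yaf2 (0.919), and the 5 with the lowest were 6820431F20Rik (-0.943), Gm26580 (-0.942), Bcl9 (-0.93), Tnfrsf18 (-0.928) and Ict1os (-0.92). These are descriptions over 11 mice, chosen as the extremes of 14427 genes. Genes closest to Arntl were Elf4 (0.904), Dhx16 (0.888) and Rtl10 (0.888). Of the other core clock genes, Bhlhe41, an E-box repressor, had r = 0.844 with Dbp and -0.617 with Arntl and ranked 48 for Dbp. Fbxl21, an F-box protein that acts on the CRY proteins, had r = -0.735 with Dbp and 0.605 with Arntl. Tef, a relative of Dbp that binds the same D-box, had r = -0.355 with it.

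Measures of the libraries and of the state of the mice were set against the members in 40 relations. The share of reads outside annotated genes, which ran from 7.01% to 11% over the mice, rose with Per3 (r = 0.831, permutation p = 0.00153, adjusted p = 0.0612, rho = 0.818, permutation p = 0.00331, adjusted p = 0.132, r = 0.857 without the 2 farthest mice and 0.824 in the CD mice). It was the only relation of the 40 past the threshold by r, and by rho there was none. Per1 had r = 0.701 with the log10 of total counts (permutation adjusted p = 0.269, rho = 0.709, adjusted p = 0.37) and 0.951 in the CD mice. The r of Dbp was -0.167 with depth and -0.411 with the share outside genes (permutation adjusted p = 0.82 and 0.571). With Fos, a gene induced by neuronal activity, it was 0.2, and with Fkbp5, a glucocorticoid target, 0.536 (permutation adjusted p = 0.82 and 0.479). Arntl had -0.513 and Nr1d2 0.71 with Fkbp5 (permutation adjusted p = 0.479 and 0.23). Outside the 40 relations and without a test, r of the temperature-sensitive genes with Arntl ran from -0.84 for Hspa1b to 0.19 for Cirbp. A negative r with Arntl was therefore not particular to clock genes.

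The share of reads aligned to several places, looked at after these, was 13.7% to 16% over the mice. Its p-values were adjusted over its own 10 relations and not together with the 40 before, which makes the threshold easier to pass. Of the 10 relations with it, 4 passed by r, namely Nr1d1 (r = 0.661, permutation adjusted p = 0.0934, rho = 0.409, adjusted p = 0.43), Dbp (r = 0.627, permutation adjusted p = 0.0989, rho = 0.5, adjusted p = 0.401), Per2 (r = -0.656, permutation adjusted p = 0.0934, rho = -0.773, adjusted p = 0.0747) and Per3 (r = -0.656, permutation adjusted p = 0.0934, rho = -0.636, adjusted p = 0.201). Without the 2 mice farthest on that share, r fell to 0.198 for Nr1d1 and to 0.206 for Dbp, so both rest on those mice, and it stayed at -0.603 for Per2 and -0.608 for Per3. The part of these library measures in the levels of the clock genes was not tested.

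Some exons of the members overlap other genes. Dbp shares 539 bp (18% of its exonic length) with Sphk2 on the other strand, Nr1d1 shares 263 bp (8.55%) with Thra and Cry2 295 bp (4.67%) with D930015M05Rik. Whether the counting used strand is not given in the sources used here, so reads from those stretches cannot be assigned with certainty.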

How the data were processed

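Hippocampal RNA from 6 CD and 5 FD mice was sequenced as 50 bp single-end reads. After trimming, the authors placed the reads on mm10 (GRCm38) with STAR and kept unique alignments for counting. The deposited values are raw counts per Ensembl gene. The methods name featureCounts, whereas the summary lines of the tables look like those of HTSeq. The annotation release is not given in the sources used here. Of the identifiers, 94.91% were found in GENCODE. Reads without a gene were 7.01% to 11% of those in the tables and stayed out of the library sizes.

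Genes with at least 10 counts in total (20589) were tested in R 4.3.3 with edgeR 4.0.16 (TMM, quasi-likelihood, Benjamini-Hochberg, threshold 0.1 as in the methods), FD against CD without covariates, sex with diet as covariate, and their interaction. DESeq2 1.42.0 was an alternative. The SE is the log2 fold change divided by the root of the F statistic. CPM values are TMM-scaled, with a prior count of 2 for log2. Correlations used 100000 permutations, two-sided, in numpy 2.4.6, with ranks and adjusted p-values from scipy 1.17.1. Per the methods some mice of the study were littermates, and the labels do not say which, so p-values measure the spread between these mice, which may not be independent. In simulated diet comparisons of 20589 genes edgeR recovered 17.5% of 200 genes changed by 0.25 on the log2 scale, 91% of those changed by 0.5 and 100% of those changed by 1. The 200 were drawn from the more abundant genes, and the simulated mice were independent, with no litter or sex effect. With fewer genes changed the adjusted threshold is harder to pass, so these shares do not give the recovery of single members. Depth ranged from 11737554 to 44447006 counts. The 95% intervals use the SE given above, which includes the spread between mice.

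The members and gene lists were chosen with earlier results of these data known. Named beyond the members were other clock genes past the threshold, otherwise the 3 with the smallest p (1 of them is not reported here), the 2 with the smallest p for diet in each state list, the most abundant gene of each marker list, and the extremes of r with Dbp and Arntl. Npas4, Rbm3, Ttr, Otx2, Prlr, Zbtb20, Slc17a7, Fibcd1, Folr1, Bhlhe41, Fbxl21, Tef and the overlapping genes were named after their values were seen. Alternatives were RLE scaling, DESeq2, other count filters, sex as a covariate, a replicate block, fits of males or females only, and leaving out single mice. Replicate numbers are shared by CD and FD mice in the labels: same-numbered mice of 1 sex correlated at 0.307 to 0.54 in their deviations from the group mean, but at 0.00515 to 0.386 after sex was removed, with 2 of 5 pairs above 0.1. The 2 FD males lie equally far above and below their shared mean, so after sex was removed their 2 pairs are not separate evidence. Whether the numbers pair the mice beyond their sex is therefore unsure, and blocked values are given where they move a count or a direction.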

Additional observations from a re-analysis of the deposited data

Results flagged for a closer look

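In the 20 groups of clock gene values (10 genes in CD and in FD mice), no mouse stood apart from the others by Dixon's criterion. Among all 50 groups searched, 4 held such a mouse, and chance flags about 1 in 20 groups. Fosb reached 10.77 CPM in CD female 1, above the other CD mice. Pdk4 was at 20.22 CPM in FD male 2, the mouse with the highest Per2, Nr1d2 and Ciart. Ppp1r1b, a striatal marker, was at 54.32 CPM and Vip at 20.12 CPM in FD female 3, above the other FD mice.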

How the results depend on the processing

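No member passed for diet under any of the 19 alternatives or for the interaction under its 15, and 6 members kept the direction of their diet value throughout. The others turned. Dbp (0.02) went to -0.0034 with sex as a covariate, -0.0369 with the replicate block, -0.158 in females alone and -0.0383 to 0.116 with 1 mouse left out. Cry1 (0.02) went to -0.134 in males alone and -0.0373 to 0.0534 with 1 mouse left out, and Nr1d1 (-0.02) to 0.0157 in males alone and -0.0561 to 0.0241. Nr1d2 ranged from -0.0055 to 0.16 and Pdk4 from -0.0030 to 0.113 with 1 mouse left out, and Hspa1b (0.12) went to -0.0247 in females alone. The genes called for diet, 14 in all, were 1 with at least 10 counts in every mouse, 2 in males alone, 1 in females alone, 3 to 12 with 1 mouse left out and 25 with the replicate block, where Arntl was at -0.16 (edgeR adjusted p = 0.725). The block changed no call of a member, and in 2 of 5 FD mice the closest CD mouse after sex was its own number.

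For sex, 7 members kept their direction. Cry2 (-0.0056) turned to 0.0014 with RLE scaling, 0.0010 with DESeq2 and -0.0140 to 0.0070 with 1 mouse left out, Arntl (-0.0010) to 0.0063 with RLE scaling, 0.0068 with DESeq2, 0.0019 with at least 10 counts in every mouse and -0.0390 to 0.0584, and Ciart (0.03) to -0.123 to 0.163. The 1257 genes called became 2043 with DESeq2, 2645 with no count filter and 18 to 3244 with 1 mouse left out. The members called became 2 with no count filter and 0 to 2 with 1 mouse left out, and only in fits that called more than 1257 genes. Of the 45 pairs of members, 3 passed, 11 on residuals and 1 to 6 with 1 mouse left out. The cause of these changes was not tested. With 6 and 5 mice, differences as small as those of most members could not be told from 0.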
